A study of Mus musculus with 6 samples.

Results

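The *Kcn* genes encode the pore-forming and auxiliary subunits of potassium channels, and 94 of them were present among the 22322 genes measured by RNA-seq in the arcuate nucleus (ARC) of male mice. They were taken as every row whose Ensembl identifier had a mouse symbol starting with Kcn in GENCODE M21, and were grouped by the letters that follow, which gave 21 subfamilies. All 94 were protein-coding genes. The ARC was cut out by laser capture microdissection (LCM) from frozen brain sections of male mice that had been started at 4 weeks of age on normal chow (NCD, with 16.5% fat) or on a diet with 60% fat (HFD) and kept on it for 16 weeks. There were 3 samples per group (NCD1, NCD2, NCD3, HFD1, HFD2 and HFD3). The study used C57BL/6J wild-type mice and showed the position of the Kiss1 neurons with *Kiss1*-Cre mice crossed to an EYFP reporter, and no other allele or agent was named for the sequenced samples. The sources do not say whether a sample was 1 mouse or several, so the p-values measure the spread between these samples, which may be technical.

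Potassium channels let potassium leave the cell, which holds the membrane potential of neurons and glia near rest and ends action potentials. Voltage-gated channels open on depolarization, inward rectifiers and tandem-pore leak channels set the resting potential, calcium- and sodium-activated channels follow firing, and auxiliary subunits set the gating and transport of the pore-forming ones. In the ARC, ATP-sensitive, G protein-gated and M-type potassium currents are known as targets of metabolic and hormonal signals in neurons that control feeding and reproduction.

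Library sizes differed, with total counts of 15925648, 9937632 and 6882449 for the NCD samples in order and 8024664, 10479778 and 5171381 for the HFD samples in order. The largest library was NCD1 and the smallest HFD3. The markers of ARC neurons were present: *Pomc*, *Agrp*, *Npy*, *Cartpt*, *Tac2* and *Ghrh* had counts in all 6 samples. With *Kiss1*, the 7 markers had a median log2 fold change of 0.44 (HFD against NCD). It was -0.36 for *Pomc* and 0.07 for *Npy*, and the summed levels of the 7 overlapped between the groups. Of the 7 markers, *Cartpt* and *Tac2* were higher in HFD at an unadjusted edgeR p under 0.05 (adjusted p 0.999 for both). The groups did not overlap for *Cartpt* and overlapped for *Tac2*. Of 4 markers of tanycytes and ependyma, *Col23a1* and *Crym* were also higher at such a p (adjusted p 0.999 for both), with overlapping groups. *Rax* and *Foxj1* had log2 fold changes of 0.27 and -0.12, the median of the list was 0.58, and its summed levels overlapped. *Cldn5*, 1 of 5 endothelial markers, and *Acta2*, 1 of 5 markers of pericytes and smooth muscle, were lower at such a p without overlap (adjusted p 0.999 for both). The median log2 fold change was -0.02 over the endothelial list and -0.23 over that of pericytes and smooth muscle, whose summed levels overlapped between the groups. The part of these 4 lists in the results on channel genes was not tested. *Kiss1* was listed at 0 counts in NCD1 and HFD1, with 27 in NCD2, 32 in NCD3, 21 in HFD2 and 42 in HFD3. It overlaps *Gm28040*, and the summed counts of both were 73, 42 and 57 in NCD1 to NCD3 and 99, 60 and 79 in HFD1 to HFD3. How reads of this locus were divided is not stated. The summed level of 4 markers of paraventricular and magnocellular neurons, which are not ARC cells, was 2909, 5828 and 2562 counts per 1000000 counts (CPM) in NCD1 to NCD3 and 1333, 1408 and 1259 CPM in HFD1 to HFD3, with *Avp* as the most abundant of them. These sums were higher in all 3 NCD samples than in any HFD sample, 2 of the 4 markers, *Avp* (adjusted p 0.194) and *Oxt* (adjusted p 0.999), were lower in HFD at an unadjusted edgeR p under 0.05, none was at 0, and their part in the results on potassium channel genes was not tested. *Sim1* was also lower without overlap, from 7.83 to 9.17 CPM in NCD and from 5.21 to 6.01 CPM in HFD (unadjusted p 0.0629, adjusted p 0.999 in edgeR's test). *Otp* had 5.65, 22.0 and 23.6 CPM in NCD1 to NCD3 and 19.1, 11.7 and 34.6 CPM in HFD1 to HFD3, with overlapping groups. In tissue samples like these, fewer cells of a type and less RNA per cell cannot be told apart.

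The ARC samples held RNA of most of the channel genes. Levels were compared between genes as FPKM, the fragments of a gene divided by transcript length in kilobases and by library size. A mean FPKM of at least 1 over the 6 samples was found for 68 of the 94 genes, of at least 5 for 35, of at least 10 for 24 and of at least 20 for 8. The 10 highest genes made up 43.8% of the summed FPKM of all 94. Voltage-gated subunits accounted for 33.0% of that sum, auxiliary subunits for 29.6%, tandem-pore channels for 15.5%, inward rectifiers for 13.7%, and calcium- or sodium-activated channels for 8.14%. Kcnip was the subfamily with the largest share, 18.5% from 4 genes.

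**Figure D1:**
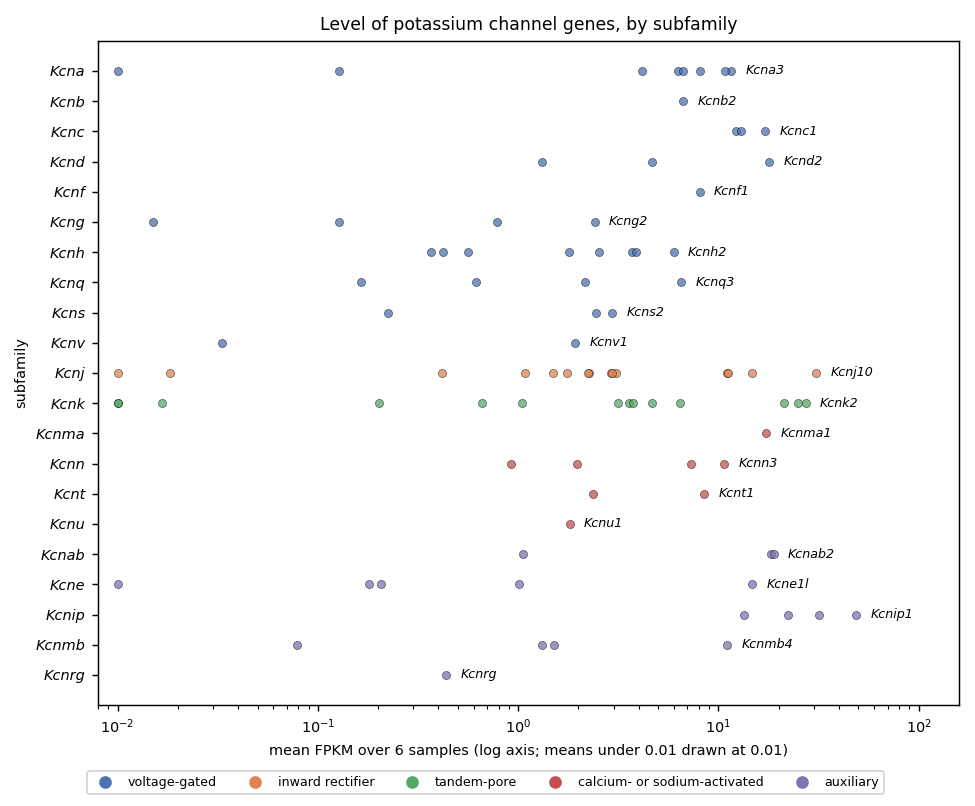
Mean FPKM over the 6 samples (log axis) of 91 potassium channel genes, in rows by subfamily and coloured by class, with the highest gene drawn in each row named. *Kcnip1* was the highest gene with a mean of 48.7 FPKM, and *Kcnj* and *Kcnk* hold genes from 30.8 and 27.3 FPKM down to 0.

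The 2 highest genes encoded auxiliary subunits. *Kcnip1*, a calcium-binding protein that associates with A-type channels, had 54.9, 57.6 and 44.7 FPKM in NCD1 to NCD3 and 42.3, 52.6 and 40.2 FPKM in HFD1 to HFD3. Its relative *Kcnip4* followed with a mean of 31.7 FPKM, ahead of *Kcnj10*, the main inward rectifier of astrocytes, with 30.8 FPKM. The leak channels *Kcnk2* and *Kcnk1* had means of 27.3 and 25.1 FPKM. *Kcnip1* was above *Kcnip4* in each of the 6 samples, while the ranges of *Kcnip4*, *Kcnj10*, *Kcnk2* and *Kcnk1* overlapped. *Kcnip3*, *Kcnk4*, *Kcnab2* and *Kcnab1* were also among the 10 highest, with means of 22.3, 21.3, 18.9 and 18.4 FPKM. *Kcnk4*, a mechanically gated leak channel, ranged from 8.84 FPKM in HFD2 to 37.4 FPKM in HFD3, a wide range. *Kcnk4* shares exon positions with *Catsperz* on the same strand, so reads of both may not have been separated.

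Within the voltage-gated class, the A-type pore subunit *Kcnd2* was at 17.9 FPKM and its relative *Kcnd3* at 4.65 FPKM. The fast delayed rectifiers *Kcnc1* and *Kcnc2* were at 17.1 and 12.3 FPKM. The slower delayed rectifier *Kcnb2* was at 6.65 FPKM, and the low-threshold subunits *Kcna1* and *Kcna2* at 6.30 and 6.66 FPKM. *Kcna3* led its subfamily with 11.6 FPKM. *Kcnh2*, which encodes an ERG-type channel, led the Kcnh genes with 5.98 FPKM. The M-current subunits *Kcnq3* and *Kcnq5* were at 6.54 and 2.16 FPKM. Of the silent subunits, which form no channel by themselves, the highest of each subfamily were *Kcnf1* with 8.06 FPKM, *Kcns2* with 2.96 FPKM, *Kcng2* with 2.41 FPKM and *Kcnv1* with 1.93 FPKM.

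Among the inward rectifiers, the glial subunit *Kcnj16*, which joins with *Kcnj10*, was at 14.8 FPKM. The G protein-gated subunits *Kcnj9*, *Kcnj3* and *Kcnj6* were at 11.2, 11.1 and 2.96 FPKM. *Kcnj11*, the pore of the ATP-sensitive channel in neurons, was at 1.76 FPKM. *Kcnj8*, known from mural cells, was at 2.23 FPKM and *Kcnj13*, known from choroid plexus, at 3.07 FPKM. The acid-sensitive leak channels *Kcnk3* and *Kcnk9* were at 6.46 and 3.74 FPKM. Of the calcium-activated channels, the large-conductance *Kcnma1* was at 17.4 FPKM, and the small-conductance *Kcnn3*, *Kcnn2* and *Kcnn1* were at 10.7, 7.30 and 1.97 FPKM. The sodium-activated *Kcnt1* was at 8.53 FPKM. *Kcnu1*, best known from sperm, was at 1.81 FPKM. The remaining auxiliary subfamilies were led by *Kcne1l* with 14.8 FPKM and *Kcnmb4*, the neuronal partner of *Kcnma1*, with 11.1 FPKM. *Kcnrg*, a regulator rather than a channel, was at 0.437 FPKM.

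For the comparison of diets, 74 of the 94 genes (78.7%) had enough counts to be tested, and 20 fell below the filter on low counts. No potassium channel gene reached an adjusted p under 0.05 between HFD and NCD. By edgeR's quasi-likelihood test, with Benjamini-Hochberg adjustment over all 14188 genes, the smallest adjusted p of the 74 was 0.999, and DESeq2 also called 0. Among all genes the same test called 8, or 0.0564%. At an unadjusted p under 0.05, 3 of the 74 (4.05%) passed, against 2.3% of all genes tested. All 3 had lower counts in HFD, where 1.09% of all genes were lower at this p and 1.21% higher. DESeq2, which tested 90 channel genes, gave 3 lower genes (against 1.93% of all genes), *Kcnh6*, *Kcna4* and *Kcnk5*, each with an adjusted p of 1.0. With the total count in the model 2 were lower and 1 (*Kcnab3*) higher (3.15% of all genes passed), and limma on FPKM gave 2 lower and 1 (*Kcnk7*) higher (2.29%). Without NCD1 the count was 0 (1.9% of all genes passed), without NCD2 it was 1 (1.58%) and without NCD3 it was 10, of which 3 were higher (8.13%). Without HFD1 it was 3 (1.36%), without HFD2 it was 8, of which 2 were higher (4.6%), and without HFD3 it was 2 (1.94%). *Kcnk5*, which was below the filter on all 6 samples and had more counts in each NCD than in each HFD sample, entered the last 3 fits and that without NCD3 as a lower gene, and over the 74 genes alone the counts were 9 without NCD3 and 2, 7 and 1 without HFD1, HFD2 and HFD3. *Kcnk7* was also below that filter.

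The 3 genes were *Kcnh6*, *Kcna4* and *Kcna6*, each a pore-forming subunit of a voltage-gated channel. *Kcnh6* (chr11:106008124-106034549, plus strand, GRCm38) encodes an ERG-type channel. It had 3.55, 1.93 and 3.01 CPM in NCD1 to NCD3 and 1.12, 1.08 and 0.564 CPM in HFD1 to HFD3. Every NCD sample was above every HFD sample, and the values rested on 59, 19 and 20 counts in NCD and 9, 11 and 3 counts in HFD. The log2 fold change was -1.57 ± 0.51 (SE, n = 3 per group), with an unadjusted p of 0.00919 and an adjusted p of 0.999 in edgeR's test. With limma on log2(FPKM + 1) the difference was -0.51. Its mean level of 0.563 FPKM was above only *Kcnh3* and *Kcnh4* among the 74 genes tested.

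*Kcna4* (chr2:107290639-107298502, plus strand) encodes a fast-inactivating A-type subunit. It had 27.7, 24.5 and 20.9 CPM in NCD1 to NCD3 and 17.1, 18.3 and 11.3 CPM in HFD samples 1 to 3. The groups did not overlap, and the gap between NCD3 and HFD2 was smaller than the range within either group. Its log2 fold change was -0.64 ± 0.25 (SE, n = 3 per group), with an unadjusted p of 0.0237 and an adjusted p of 0.999 in edgeR's test.

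*Kcna6* (chr6:126708329-126740674, minus strand) encodes a delayed rectifier subunit. It had 85.3, 70.6 and 61.0 CPM in NCD1 to NCD3 and 52.6, 61.8 and 41.9 CPM in HFD1 to HFD3. HFD2 lay just above NCD3, so the groups overlapped. The log2 fold change was -0.47 ± 0.22 (SE, n = 3 per group), with an unadjusted p of 0.0489 and an adjusted p of 0.999 in edgeR's test. Its exons share positions with *Gm26673* on the opposite strand, and since the sources do not say whether counting used strand, reads of both cannot be told apart. In all, 25 of the 74 genes share exon positions with another gene, *Kcnip4*, *Kcng2*, *Kcnj3*, *Kcnma1* and *Kcnk3* among them.

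These 3 genes were picked by their unadjusted p, and a shared control of them was not tested. The 250 bases upstream of their RefSeq start (GRCm38.p6) are shown 5′ to 3′ on the gene's own strand. Any match to 4 motifs of activity-dependent transcription is in capitals. The windows lie at chr11:106007898-106008147 for *Kcnh6*, chr2:107290339-107290588 for *Kcna4* and chr6:126740675-126740924 for *Kcna6*.
Kcnh6: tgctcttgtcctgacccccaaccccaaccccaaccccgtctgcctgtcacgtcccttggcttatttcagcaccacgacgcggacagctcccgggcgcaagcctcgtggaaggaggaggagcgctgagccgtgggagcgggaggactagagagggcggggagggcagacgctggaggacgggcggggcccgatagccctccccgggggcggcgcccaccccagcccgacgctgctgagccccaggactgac
Kcna4: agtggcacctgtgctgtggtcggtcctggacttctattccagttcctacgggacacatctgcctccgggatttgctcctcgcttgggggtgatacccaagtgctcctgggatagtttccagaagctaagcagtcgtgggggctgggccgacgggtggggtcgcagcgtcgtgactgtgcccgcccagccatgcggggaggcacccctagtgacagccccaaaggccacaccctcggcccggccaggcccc
Kcna6: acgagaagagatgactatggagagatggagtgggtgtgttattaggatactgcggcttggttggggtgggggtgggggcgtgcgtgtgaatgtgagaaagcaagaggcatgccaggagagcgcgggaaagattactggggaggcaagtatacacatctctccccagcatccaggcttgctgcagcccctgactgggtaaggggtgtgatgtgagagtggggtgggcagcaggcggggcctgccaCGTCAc
The motifs searched on both strands were the full cAMP response element TGACGTCA, its half-site TGACG (which the full element contains), the AP-1 motif TGANTCA and the EGR motif GCGNGGGCG. The only match was a half-site next to the start of *Kcna6*, read on the opposite strand. Half-sites were found in 17.8% of all 32851 upstream windows and in 15 of the 94 windows (16.0%) that 69 potassium channel genes have in RefSeq. The full element was found in 1.55% of all windows and 0 of the 94, AP-1 in 6.75% and 4 of the 94 (4.26%), and EGR in 4.7% and 3 of the 94 (3.19%). These are letter matches only, and a window without one says no more than that these letters are not in it.

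In 5 genes (6.76% of those tested) every HFD sample was below every NCD sample, against 3.24% of all genes, and the opposite order was found in 0 potassium channel genes, against 3.24% of all genes (6.47% in either direction). Besides *Kcnh6* and *Kcna4* these were *Kcnip4*, *Kcns2* and *Kcnj10*. With 3 samples against 3, a two-sided exact permutation test of 1 gene cannot give a p under 0.1, which is the value that all 5 have. *Kcnip4* had 96.5, 72.7 and 79.7 CPM in NCD1 to NCD3 and 66.5, 67.1 and 53.2 CPM in HFD1 to HFD3. Its log2 fold change was -0.41 ± 0.20 (SE, n = 3 per group), with an unadjusted p of 0.0609 and an adjusted p of 0.999 in edgeR's test.

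*Kcns2*, a silent subunit that modifies other voltage-gated channels, had 21.8, 17.7 and 15.5 CPM in NCD1 to NCD3 and 11.2, 15.5 and 12 CPM in HFD1 to HFD3. NCD3 and HFD2 were equal to 3 digits, so the separation of the groups was minimal, and the log2 fold change was -0.51 ± 0.25 (SE, n = 3 per group). *Kcnj10* had 171.5, 185.8 and 190.6 CPM in NCD1 to NCD3 and 166.9, 133.5 and 152.3 CPM in HFD1 to HFD3, again with a narrow gap between NCD1 and HFD1. Its log2 fold change was -0.28 ± 0.19 (SE, n = 3 per group). *Kcnj16* had 87.0, 60.8 and 41.2 CPM in NCD1 to NCD3 and 45.6, 51.0 and 38.3 CPM in HFD1 to HFD3, and NCD3 lay within the HFD samples. The summed level of 6 astrocyte markers was 2444, 2582 and 2443 CPM in NCD1 to NCD3 and 2905, 2551 and 2481 CPM in HFD1 to HFD3, with *Slc1a2* the most abundant of them. The sums of the groups overlapped, 1 of the 6 markers (*Gfap*) was higher in HFD at an unadjusted edgeR p under 0.05, and the median log2 fold change of the 6 was -0.13. None of the 6 was at 0, and their part in the values of *Kcnj10* was not tested.

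**Figure D2:**
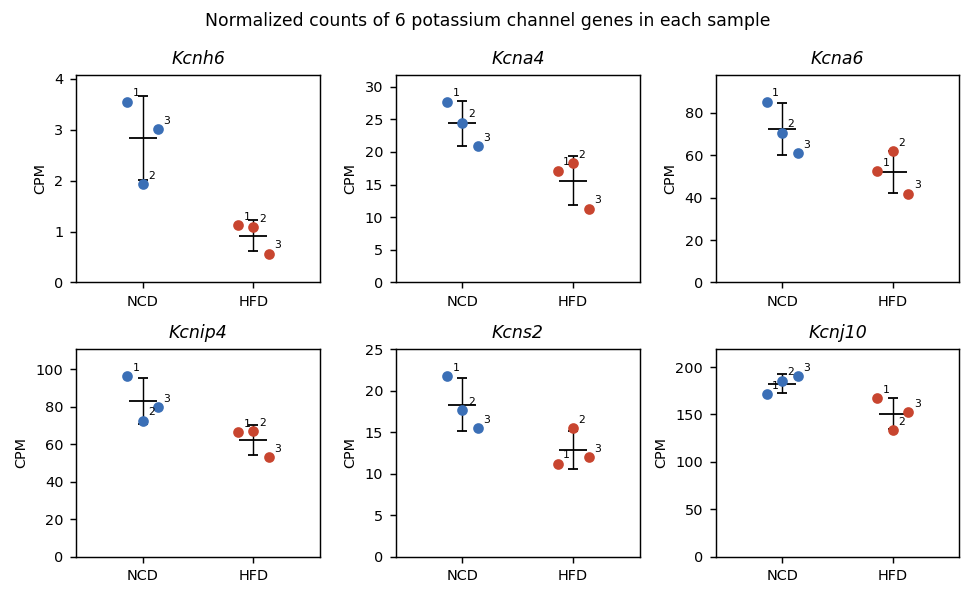
CPM of 6 potassium channel genes in each sample, with the sample number beside each point and bars for the group mean ± SD (n = 3 per group). *Kcnh6*, *Kcna4*, *Kcnip4*, *Kcns2* and *Kcnj10* show no overlap between the groups, and in *Kcna6* sample HFD2 at 61.8 CPM is above NCD3 at 61.0 CPM.

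The largest difference in the other direction was that of *Kcng2*, a silent subunit, which had 3.61, 4.37 and 5.56 CPM in NCD1 to NCD3 and 8.94, 4.04 and 9.96 CPM in HFD1 to HFD3. HFD1 and HFD3 were above all NCD samples, while HFD2 lay among them. The log2 fold change was 0.76 ± 0.39 (SE, n = 3 per group), with an unadjusted p of 0.0768 and an adjusted p of 0.999 in edgeR's test. It was 0.37 with the total count in the model and 1.08 without HFD2, where the unadjusted p was 0.0121 and the adjusted p 0.892 in edgeR's test.

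Most of the other channel genes lay close to no difference. Of the 74 genes tested, 71 had a fitted difference within 1.5-fold, and the exceptions were *Kcnh6*, *Kcna4* and *Kcng2*. Both p under 0.05 and a 1.5-fold difference were met by *Kcnh6* and *Kcna4* (2.7% of the 74, against 1.9% of all genes). The log2 fold change was below 0 in 44 genes (59.5%) and above 0 in 30, while 49.5% of all genes were below 0. The median was -0.08 over the 74 genes and 0.0 over all genes, and the former was -0.03 without HFD1, -0.04 with the total count in the model and -0.02 over the channel genes that DESeq2 tested. The median SE of a gene's log2 fold change was 0.27, and 54 of the 74 genes had a difference smaller than its own SE.

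**Figure D3:**
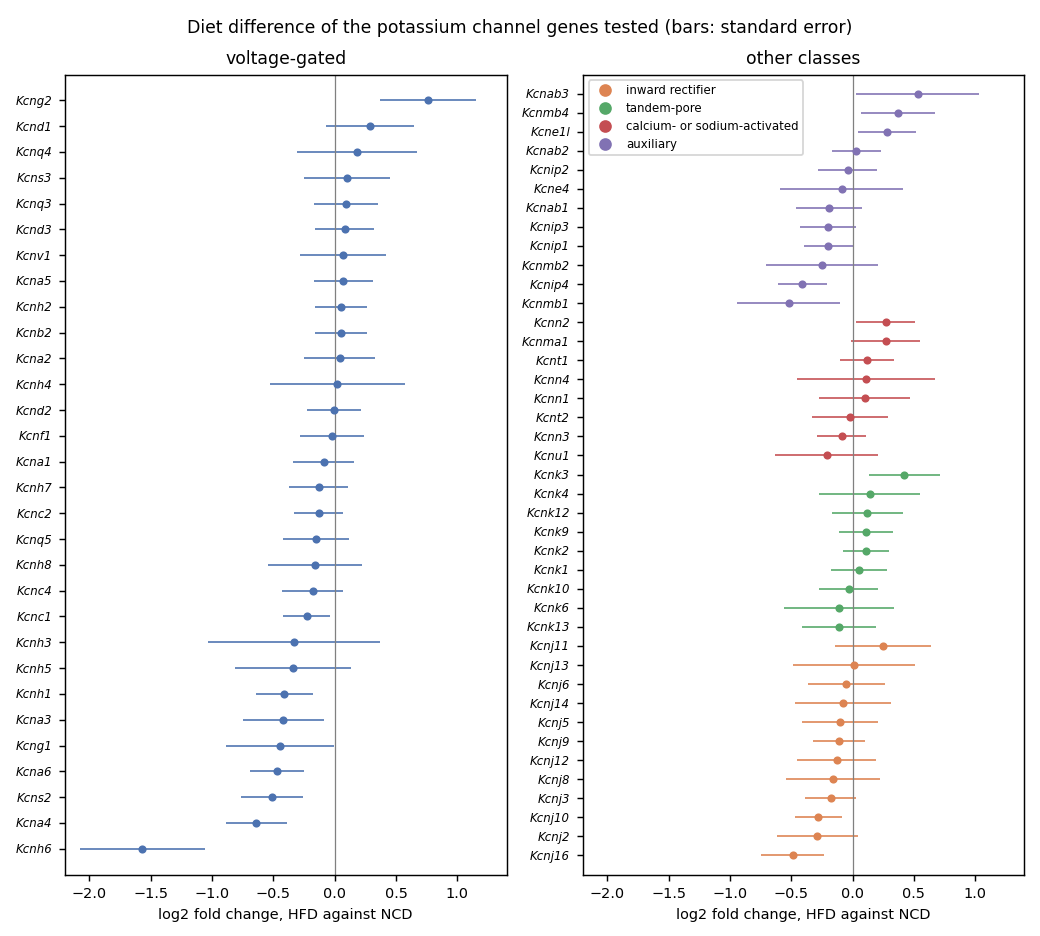
Fitted log2 fold change (HFD against NCD) with its standard error for 71 of the potassium channel genes tested, ordered within each class, with voltage-gated subunits on the left and the other classes on the right. *Kcnh6* at -1.57 lies farthest from 0, and *Kcnh6*, *Kcna4* and *Kcng2* lie beyond 1.5-fold.

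By class, 20 of the 33 voltage-gated genes tested had a log2 fold change below 0, with a median of -0.13, which was -0.02 with limma on FPKM. The auxiliary genes went 8 below and 4 above 0 with a median of -0.14, which was 0.04 with the total count in the model, -0.04 without NCD2 or HFD3, -0.06 without NCD1 and -0.29 without NCD3. Of the 12 inward rectifiers tested, 10 were below 0, with a median of -0.12, and 0 of the 12 had an unadjusted p under 0.05 in edgeR's test. The count below 0 was 7 without HFD1, and the median lay between -0.04 (without HFD1) and -0.30 (without HFD2) when 1 sample was left out. The summed FPKM of all 15 inward rectifier genes was 103.4, 92.2 and 83.8 in NCD1 to NCD3 and 75.3, 79.0 and 83.3 in HFD1 to HFD3. The highest HFD sample was just under the lowest NCD sample. The mean sum was 93.1 in NCD and 79.2 in HFD, and much of this difference lay in 2 genes. *Kcnj10* had means of 33.7 and 28.0 FPKM and *Kcnj16* of 17.3 and 12.2 FPKM. How often sums of other genes keep the groups apart was not tested. Within a class, the signs of the fitted values were not the same in every subfamily, but no difference between subfamilies was tested. In Kcnd, Kcnab, Kcnb, Kcnc and Kcnip, 0 genes had an unadjusted p under 0.05 in edgeR's test. Of the Kcnd genes and of the Kcnab genes 2 of 3 were above 0, and the Kcnb genes had a median of 0.23, whereas the 4 Kcnc genes and the 4 Kcnip genes all had values below 0, with medians of -0.21 and -0.20, which lay between -0.27 and -0.13 and between -0.33 and -0.09 when 1 sample was left out. With the log2 total count in the model, 2 of the 4 Kcnip genes were below 0 and their median was -0.04. The tandem-pore channels went 6 above and 3 below 0 with a median of 0.11. It was 0.02 without NCD2 or HFD3, 0.03 with the total count in the model, 0.04 without HFD1 and 0.18 without NCD3. The calcium- or sodium-activated channels went 5 above and 3 below 0, also with a median of 0.11. That last median was -0.02 with the total count in the model or without HFD3, -0.01 without NCD3 and 0.0 with limma on FPKM. Without NCD1 it was 0.05 and without HFD1 it was 0.21. No class held a gene with an adjusted p under 0.05.

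For *Kcnq3*, *Kcnq5*, *Kcnj11*, *Kcnj3* and *Kcnn2*, subunit genes of M-type, ATP-sensitive, G protein-gated and small-conductance channels, the groups overlapped. The M-type subunit *Kcnq3* had 48.5, 84.2 and 92.4 CPM in NCD1 to NCD3 and 71.9, 69.6 and 97.7 CPM in HFD1 to HFD3, with NCD1 the lowest of all samples. *Kcnq5* had 14.8, 10.9 and 19.1 CPM in NCD1 to NCD3 and 12.8, 14.3 and 13.1 CPM in HFD1 to HFD3, with all HFD samples inside the NCD range. *Kcnj11* had 3.01, 4.78 and 7.06 CPM in NCD1 to NCD3 and 4.84, 5.32 and 7.33 CPM in HFD1 to HFD3, with a log2 fold change of 0.25 ± 0.39 (SE, n = 3 per group) that was -0.04 without NCD1 or with the total count in the model and 0.59 without NCD3. *Kcnj3* had 44.7, 54.5 and 54.6 CPM in NCD1 to NCD3 and 37.5, 53.8 and 44.1 CPM in HFD1 to HFD3. Its log2 fold change was -0.18 ± 0.21 (SE, n = 3 per group), and it was -0.06 without HFD1 and -0.33 without HFD2. *Kcnn2* had 17.1, 22.0 and 27.2 CPM in NCD1 to NCD3 and 27.3, 21.6 and 31.0 CPM in HFD1 to HFD3, with HFD2 among the NCD samples and a log2 fold change of 0.27 ± 0.24 (SE, n = 3 per group). It was 0.05 with the total count in the model, 0.10 without NCD1 and 0.45 without NCD3.

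Of the 20 genes below the filter, 4 (*Kcna7*, *Kcne1*, *Kcnj1* and *Kcnk16*) had 0 counts in all 6 samples. A count of 0 allows a level of up to 3 counts, which is 0.188 CPM in NCD1 and 0.58 CPM in HFD3 when divided by the total counts. The other CPM values used TMM library sizes, on which 3 counts in HFD3 are 0.564 CPM. The acid-sensitive leak channel *Kcnk5* had 21, 13 and 6 counts in NCD1 to NCD3 and 1, 1 and 2 counts in HFD1 to HFD3, and is named here because of these values. When all genes with at least 1 count were tested, its unadjusted p was 0.0117 and its adjusted p 0.998 in edgeR's test. *Kcnk7* had 6, 9 and 4 counts in NCD1 to NCD3 and 20, 10 and 6 counts in HFD1 to HFD3, with an unadjusted p of 0.0977 and an adjusted p of 0.998 in the same edgeR fit.

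Channels act with proteins that are not named Kcn, and 26 such partners were examined, among them the sulfonylurea receptors of ATP-sensitive channels, DPP-like subunits of A-type channels, and GABA-B receptors that open G protein-gated channels. Of these, 23 were tested and 0 had an unadjusted p under 0.05 in edgeR's test, where 2.3% of all genes did, and the smallest was 0.104. DESeq2 gave 1. The lowest log2 fold change was -0.48, for *Adam22*, the median was -0.05, and 13 were below and 10 above 0. *Abcc8*, the sulfonylurea receptor that joins with *Kcnj11*, had 14.7, 10.1 and 6.16 CPM in NCD1 to NCD3 and 7.82, 12.8 and 2.82 CPM in HFD1 to HFD3, with overlapping groups. *Abcc9* lay between 4.92 and 7.88 CPM in all samples. A slope of CPM on total count, as described next for the channel genes, had an adjusted p under 0.05 in 12 of the 23 partners, against 17.5% of all genes, and that of *Abcc8* was 1.41 ± 0.32 (SE, 6 samples) with an adjusted p of 0.0073 in edgeR's test.

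The spread between samples of 1 group followed the size of the library in part of the channel genes. In a fit with diet and the log2 total count, 12 of the 74 genes (16.2%) had a slope on total count with an adjusted p under 0.05, against 17.5% of all genes. The slope is the change in log2 CPM for each doubling of the total count. It was above 0 in 6 genes (8.11%, against 7.65% of all genes), namely *Kcnh5*, *Kcna3*, *Kcnk13*, *Kcnab1*, *Kcnj16* and *Kcna6*, and below 0 in 6 (8.11%, against 9.86% of all genes), among them *Kcnk4*, *Kcna2*, *Kcnma1*, *Kcnk3* and *Kcnq3*. Without NCD3 no channel gene passed and 0.897% of all genes did in edgeR's test, while 15 channel genes and 19.7% of all genes had an unadjusted p under 0.05. This comparison was added after the data had been seen.

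*Kcnh5*, an EAG-type voltage-gated channel, had 20.9, 8.74 and 4.36 CPM in NCD1 to NCD3 and 9.31, 12.2 and 5.64 CPM in HFD samples 1 to 3. The largest library of each group was the highest and the smallest the lowest, and the slope was 1.56 ± 0.28 (SE, 6 samples; adjusted p 0.00233 in edgeR's test). *Kcnma1* went the other way, with 79.8, 126.9 and 189.8 CPM in NCD1 to NCD3 and 155.1, 135.0 and 186.7 CPM in HFD1 to HFD3. Its slope was -0.79 ± 0.17 (SE, 6 samples; adjusted p 0.00526 in edgeR's test), and its log2 fold change between diets went from 0.27 to -0.01 when the total count was in the model. Among the genes with an adjusted p under 0.05, *Kcnk4* had the steepest slope below 0, -1.28 ± 0.23 (SE, 6 samples; adjusted p 0.00237 in edgeR's test). Of the genes with the lowest diet p, *Kcna6* had a slope of 0.46 ± 0.15 (SE, 6 samples; adjusted p 0.0499 in edgeR's test), and with the total count in the model its log2 fold change between diets was -0.27. That of *Kcnh6* was then -1.39 and that of *Kcna4* -0.44, both still at an unadjusted p under 0.05, with adjusted p values of 1.0 in edgeR's test.

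**Figure D4:**
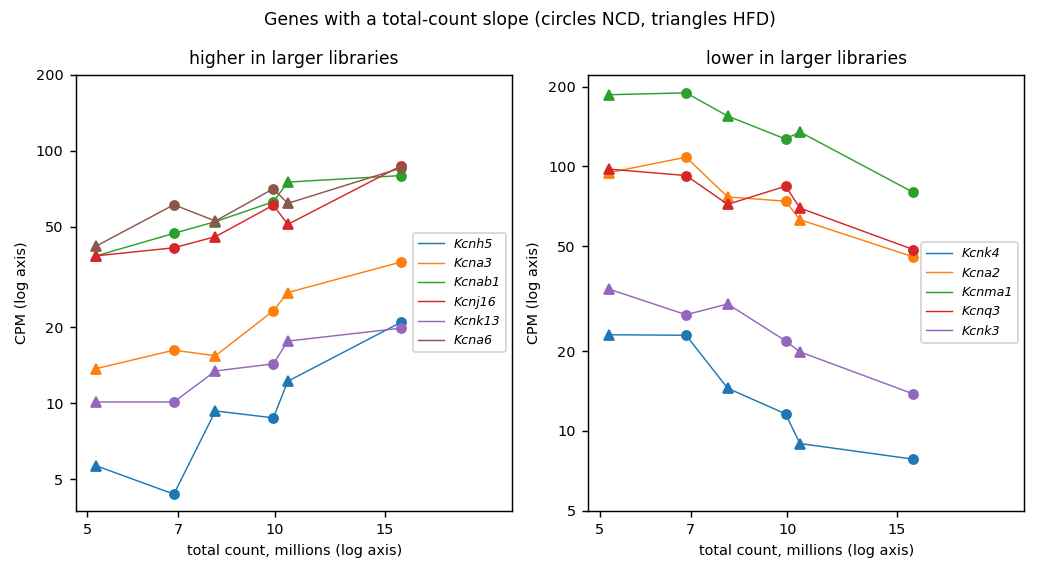
CPM (log axis) against total count (log axis) for 11 potassium channel genes with a slope at an adjusted p under 0.05, with circles for NCD and triangles for HFD and a line joining the samples of a gene. The left panel holds the 6 genes with higher CPM in larger libraries and the right panel 5 with lower CPM.

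Transcript length was compared between these sets of genes without a test of the difference. The longest GENCODE M21 transcript had a median of 11.4 kb in the 6 channel genes that were lower in larger libraries. In the 6 that were higher the median was 3.88 kb, against 4.05 kb for all 74 genes tested. The ranges overlapped, from 2.54 to 12.1 kb in the lower and from 1.9 to 5.84 kb in the higher genes. *Kcnk4* and *Kcnk3*, both lower in larger libraries, had 2.54 and 3.81 kb. For all genes the corresponding medians were 4.06 kb and 3.7 kb. Of 7 channel genes with a transcript over 10 kb, all had a slope below 0, and 4, *Kcna2*, *Kcnma1* and *Kcnq3* among them, had an adjusted p under 0.05. Among all 398 tested genes with a transcript over 10 kb, 24.6% were lower in larger libraries and 1.01% higher. Marker genes of cell types had such slopes too, at an adjusted p under 0.05 in edgeR's test. These were 4 of 7 markers of ARC neurons, 3 of 6 of astrocytes and 0 of 5 of neurons in general. The share of all genes was 17.5%. The slope was -1.03 for *Agrp* and 0.76 for *Fezf1*, a marker of the ventromedial nucleus. The part of the tissue cut out, of fragment length or of RNA quality in these slopes was not tested.

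The count and the FPKM of a gene did not always move together, because the FPKM also holds the transcript length that was assigned in each sample. The implied length was computed from both values for 61 channel genes with at least 1 FPKM in every sample. It varied more than 1.5-fold between samples in 4 of them (6.56%), against 9.08% of all such genes. For *Kcnb2* it was 5.52, 7.56 and 13.1 kb in NCD1 to NCD3 and 8.92, 7.63 and 9.19 kb in HFD1 to HFD3. In NCD1 to NCD3 its CPM went 44.7, 54.5 and 63.7 while its FPKM went 8.47, 7.13 and 4.71, so NCD3 was the highest NCD sample by count and the lowest by FPKM. For the leak channel *Kcnk10* the implied length was 3.22, 3.76 and 7.46 kb in NCD1 to NCD3 and 5.66, 4.20 and 7.46 kb in HFD1 to HFD3, the highest values being the full length of its longest transcript. *Kcnn1* and *Kcnk4* also passed 1.5-fold, with ranges from 1.52 to 2.96 kb and from 0.636 to 0.982 kb. *Kcnu1* had an implied length between 1.22 and 1.45 kb in all samples where its longest transcript has 3.54 kb. *Kcna4*, *Kcnip4* and *Kcnj10* kept nearly the same implied length in every sample, so their counts and FPKM gave the same picture.

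**Figure D5:**
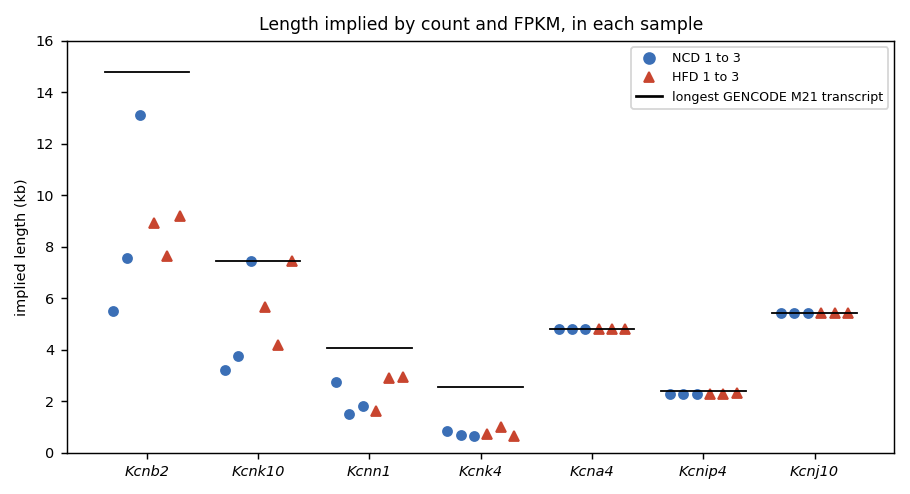
Transcript length in kb implied by count and FPKM in each sample for 7 potassium channel genes, with circles for NCD, triangles for HFD and a black line at the longest GENCODE M21 transcript. *Kcnb2* spans 5.52 to 13.1 kb and *Kcnk10* 3.22 to 7.46 kb, while *Kcna4*, *Kcnip4* and *Kcnj10* stay in place.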

How the data were processed

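ARC tissue of 3 NCD and 3 HFD samples was sequenced on a NovaSeq instrument after oligo(dT) enrichment of mRNA. The authors screened reads against a ribosomal database with bowtie2, aligned them with HISAT2 and derived values per gene with StringTie and RSEM. The submitters' processing notes name build mm10, and versions, annotation and strand setting are not given in the sources used here. The deposited table holds read counts per gene, not normalized, and FPKM values, which the authors scaled to transcript length and mapped fragments. Its columns of group means, fold changes, p-values and FDR from the authors' own comparison were not used.

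Of 22322 identifiers, 22267 had a symbol in GENCODE M21 (GRCm38). Groups followed the sample titles. Counts were filtered with filterByExpr, normalized by TMM and compared by the quasi-likelihood test of edgeR (glmQLFit, glmQLFTest) with diet as the only term, on 14188 genes with Benjamini-Hochberg adjustment. CPM used TMM library sizes, and groups were called not overlapping on log2 CPM with a prior count of 2. SE is the standard error of the log2 fold change. Total counts ranged from 5171381 to 15925648, and limits of 3 counts were divided by the total counts without TMM and cover counting error only. Implied length in kb is the count, per 1000000 counts of the library, divided by FPKM. Alternatives were RLE factors, DESeq2's Wald test, other count filters, a replicate block, the total count as covariate, each sample left out, and limma with trend on log2(FPKM + 1) for a mean FPKM of at least 0.5. The slopes on total count, their versions at a mean count of 50 or more and with each sample left out, and the transcript lengths were chosen after seeing the data. The fits were tested on simulated data at an adjusted p under 0.05. For a true log2 diet change of 1, edgeR recovered 36 of 100 genes and DESeq2 39. For a change of 2 these were 99 and 95 of 100. Of 200 genes with a true total-count slope of 1 in size, edgeR recovered 42. A gene with a 2-fold difference can thus remain uncalled. A few genes that enter the counts and medians are not reported here by name or drawn.

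The members, the lists and the tests were chosen with earlier results of these data known. The genes named were those with an unadjusted p under 0.05, the 10 highest by mean FPKM and the highest of each subfamily, genes fixed by role, up to 5 in each direction whose groups did not overlap, and *Abcc8* and *Abcc9*. Genes named for a total-count slope, for transcript length or for counts below the filter, *Kcng2*, *Adam22*, *Kcnab3*, *Kcnip3*, *Gm28040* and single marker genes of other lists were chosen after their values were seen unless that rule names them. Promoter sequences are from RefSeq (GRCm38.p6), and 69 of the 94 genes matched by symbol. Tests ran in edgeR 4.0.16, DESeq2 1.42.0 and limma 3.58.1 under R 4.3.3, and tables and figures in pandas 2.3.3, numpy 2.4.6 and matplotlib 3.10.9 under Python 3.11.15.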

Additional observations from a re-analysis of the deposited data

How the results depend on the processing

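The count of channel genes with an adjusted p under 0.05 was 0 in every fit run. The count at an unadjusted p under 0.05 (3) was within 1.5 times under RLE factors, DESeq2, both count filters, the total count as covariate and limma on FPKM, and ranged from 0 to 10 with 1 sample left out. The count past p and 1.5-fold (2) was 1 at a mean count of 50 or more, where *Kcnh6* was not tested, 1 with limma on FPKM, and from 0 to 8 with 1 sample left out. For partner genes (0) it was 1 with DESeq2, 1 for genes with at least 1 count, and from 0 to 2 with 1 sample left out. The count of all genes with an adjusted p under 0.05 (8) was 19 with DESeq2, 15 for genes with at least 1 count, 15 with the total count as covariate, 5 with limma on FPKM, and from 1 to 16 with 1 sample left out. The count of channel genes with a total-count slope (12) was 14 at a mean count of 50 or more and from 0 to 14 with 1 sample left out. The cause of these changes was not tested.

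*Kcnh6* stayed at p under 0.05 except without NCD1 and under the filter that removed it. *Kcna4* lost it without NCD1, NCD2 or HFD3. *Kcna6* lost it with DESeq2, the covariate, limma and 4 of the 6 fits without 1 sample. The log2 fold change of *Kcnma1* was -0.01 with the covariate and from -0.01 to 0.62 with 1 sample left out, and that of *Kcnj11* was -0.04 with the covariate and from -0.04 to 0.59 with 1 sample left out. Over 13 genes and their alternatives, 144 of 167 values kept direction and side of the threshold.

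The replicate numbers shared by the groups gave correlations of deviations of -0.0116, 0.113 and 0.369. Between samples of different number they ranged from -0.385 to 0.311. With 3 samples per group, such values cannot show whether samples of the same number belong together. With the replicate block, 5 channel genes had an unadjusted p under 0.05 (adding *Kcnip4* and *Kcnj16*, against 4.15% of all genes), and 17 of all genes an adjusted p under 0.05. Of the 94 genes, 20 had too few counts for the test.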
